A study of Mus musculus with 31 samples.

Results

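Interleukin-1α (Il1a), interleukin-1β (Il1b), the interleukin-1 receptor antagonist (Il1rn), interleukin-6 (Il6), tumour necrosis factor (Tnf), colony stimulating factor 1 (Csf1), interleukin-18 (Il18) and transforming growth factor β1 (Tgfb1) were followed in the forebrain of newborn mice. These 8 cytokine genes were taken by name from the 19902 gene symbols used on the array, and each was represented by its brightest probe. All 8 were found on the array. RNA of the forebrain was hybridised on 31 Agilent 2-colour arrays, in which a control pool was labelled with Cy3 and a treated pool with Cy5, except where stated below. The study asked what a single dose of magnesium sulfate (MgSO4) does to transcription in the immature brain, with and without hypoxia-ischemia (HI).

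All animals were NMRI mice of postnatal day 5, and each RNA sample was a pool of 6 animals, 3 males and 3 females. The groups named Mg compared uninjured pups given 600 mg/kg MgSO4 with control pups on 4 arrays each after 3 h, 12 h and 24 h and on 7 arrays after 6 h. The groups named RV PBS compared pups after HI by the Rice-Vannucci procedure, in which the right carotid was tied and the pup then breathed low oxygen, with control pups after 3 h and 12 h (3 arrays each). On the arrays of the groups named RV Mg were pups given 600 mg/kg MgSO4 before HI, again after 3 h and 12 h (3 arrays each). By the methods, RNA was taken from ipsilateral hemispheres only, the side of the tied carotid, in injured and control pups alike. The controls are recorded as PBS-injected in the labels and as untreated in the methods, and the injection as subcutaneous in the labels and intraperitoneal in the methods. The labels also give MgSO4 as the treatment of the Cy5 pool on the RV PBS arrays, although the title, the source and the methods of these arrays do not, and that pool is taken here as HI without MgSO4. For the RV Mg arrays, the titles name a Cy3 pool of MgSO4-treated uninjured pups and the labels and methods place the injured pool in Cy5, whereas the figures of the study show the MgSO4-treated injured pool in Cy3. The methods moreover set pups given MgSO4 before HI against pups with HI alone, and on that reading both pools of the RV Mg arrays were injured. The direction of the RV Mg ratios and the identity of the Cy3 pool are therefore not settled, and their values are given by channel. The labels name no dye swap, so a dye effect stays in each ratio.

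As background, Il1a and Il1b are agonists of the same receptor, Il1rn occupies that receptor without activating it, and Il6 and Tnf are released alongside them by activated microglia, astrocytes and invading leukocytes. Il18 belongs to the interleukin-1 family and is stored as an inactive precursor until caspase-1 cleaves it. Csf1 acts through the receptor Csf1r and sustains microglia, and Tgfb1 is needed for the microglial programme and limits inflammation.

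The stretches upstream of 3 of these genes are shown because Csf1 was the member that passed the test, Il6 was above background in HI pools but not in their controls at 12 h, and Il18 was the member with ratios below 0 on every RV PBS array. The sequences are from RefSeq, on the GRCm38.p6 build, each the 250 bases before the annotated gene start, read 5′ to 3′ on the gene's strand. Csf1 lies on the minus strand and its stretch is chr3:107760470-107760719, Il6 lies on the plus strand with chr5:30012864-30013113, and Il18 lies on the plus strand with chr9:50554450-50554699. Capitals mark matches to the NF-kB motif GGNNNTTCC on either strand.
Csf1: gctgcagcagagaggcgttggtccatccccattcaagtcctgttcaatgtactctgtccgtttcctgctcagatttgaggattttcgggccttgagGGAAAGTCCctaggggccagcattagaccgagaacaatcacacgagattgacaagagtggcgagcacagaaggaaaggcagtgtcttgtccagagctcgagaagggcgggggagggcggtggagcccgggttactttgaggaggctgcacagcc
Il6: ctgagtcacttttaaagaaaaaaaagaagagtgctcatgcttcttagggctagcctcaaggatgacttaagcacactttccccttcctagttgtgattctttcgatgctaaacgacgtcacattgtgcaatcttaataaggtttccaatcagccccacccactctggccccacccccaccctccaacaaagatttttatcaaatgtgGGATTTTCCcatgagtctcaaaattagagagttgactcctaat
Il18: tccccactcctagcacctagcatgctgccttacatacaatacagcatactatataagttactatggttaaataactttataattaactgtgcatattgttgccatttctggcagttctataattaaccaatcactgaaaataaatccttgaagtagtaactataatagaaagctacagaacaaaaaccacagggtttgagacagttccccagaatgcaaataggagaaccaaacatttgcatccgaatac

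The NF-kB motif was matched once upstream of Csf1, between 154 and 146 bases before its start, and once upstream of Il6, between 43 and 35 bases before its start. The Il18 stretch held no match to it. The same motif was found in 15.7% of 32851 mouse stretches of this length. The Il6 stretch also held the AP-1 motif TGANTCA (6.75% of stretches) and the C/EBP motif TTNCNNAA (36.85% of stretches), and the Il18 stretch held the TATA motif TATAAA on the strand opposite to the gene (12.4% of stretches). Neither the CRE motif TGACGTCA nor the PU.1 motif GAGGAA was matched in the 3 stretches (1.55% and 23.25% of all stretches). Both strands were searched, and a match describes the letters in the window only.

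Most of the 8 transcripts were near background in this tissue, and only Il18, Csf1 and Tgfb1 were measured on most arrays. Detection was read from the scanner software's call that a spot is well above background. Il18 was well above background in both channels on all 31 arrays. Csf1 was above background in at least 1 channel on 31 of 31 arrays and Tgfb1 on 27 of 31 arrays. Il1b reached that mark on 10 arrays, Il6 on 9, Il1a on 4, Il1rn on 2 and Tnf on 2. The control channels are the Cy3 channels of the 25 Mg and RV PBS arrays, and they need not be 25 separate pools. In these channels Il18 was above background in 25, Csf1 in 22, Tgfb1 in 18, Il1a in 2, Il1b in 1, Il1rn in 1, Il6 in 1 and Tnf in 0. To be tested, the ratio of a probe needed that mark, in Cy3 or in Cy5, on 66.7% or more of the arrays of a group. In the RV PBS groups Il1b and Il6 reached this share only in the HI channel, so they could be tested only because HI pools were bright. They are given below by their signals and bounds, without a p, and are left out of the counts at an unadjusted p for RV PBS. The counts of members tested and called at the adjusted p include them.

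A gene was called changed when its fold was 1.5 or more and its p in the limma test, adjusted by Benjamini-Hochberg across every probe tested, was under 0.05. RNA of whole tissue was measured, so fewer cells of a type and less RNA per cell cannot be told apart.

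Csf1 was the one member called in any of the 15 comparisons, higher after HI at 3 h. On the 3 RV PBS 3h arrays, its log2 ratio of the HI pool to the control pool was 0.91, 0.31 and 0.68, a mean of 0.63 ± 0.30 (SD, n = 3). This is a fold of 1.55, with an adjusted p of 0.0393 and a 95% interval of the log2 difference from 0.31 to 0.95. The processed Cy3 intensities of the control pools were 119, 152 and 123, and the Cy5 intensities of the HI pools were 223, 188 and 196. All 3 HI pools were brighter than all 3 control pools. At this time point 1 of the 5 members tested was called, beside 554 of 14544 genes, or 3.81%.

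The call for Csf1 rested on single arrays. Without replicate 1 the adjusted p became 0.0799 and without replicate 3 it became 0.0892, and over all the alternatives tried for this value the adjusted p ran from 0.00355 to 0.228. With normexp background correction and loess the log2 difference was 0.45, which is under the 1.5-fold limit, with an adjusted p of 0.00355. Csf1 was not called with the methods' t-test or without the detection filter either.

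After 12 h the mean ratio of Csf1 was larger, but no member was called. Csf1 had log2 ratios of 1.32, 1.67 and 0.88, a mean of 1.29 ± 0.40 (SD, n = 3), or 2.45-fold, with an adjusted p of 0.0735. The control intensities were 138, 72.5 and 82.5 and the HI intensities were 344, 232 and 152, so controls and HI pools did not overlap. Of the 5 members tested, 0 were called at 12 h, beside 2 of 14587 genes, or 0.0137%. At an unadjusted p under 0.05 and the same fold, Csf1 and Il18 passed of the 3 members above background in all these pools (Csf1, Il18 and Tgfb1), where 10.4% of all genes did, and at 3 h Csf1 passed of the same 3, where 4.35% of genes did. The third 12 h array correlated less with the others (r = 0.07 and 0.29 over all probes) than these did with each other (r = 0.55). Csf1 and Il18 were called without replicate 3, when 2594 genes were called, and without replicate 1, when 613 genes were. Without replicate 2, 17 genes and 0 members were called. With normexp and loess, Csf1 (log2 difference 0.69) and Il18 (log2 difference -0.81) were called at 12 h.

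**Figure D1:**
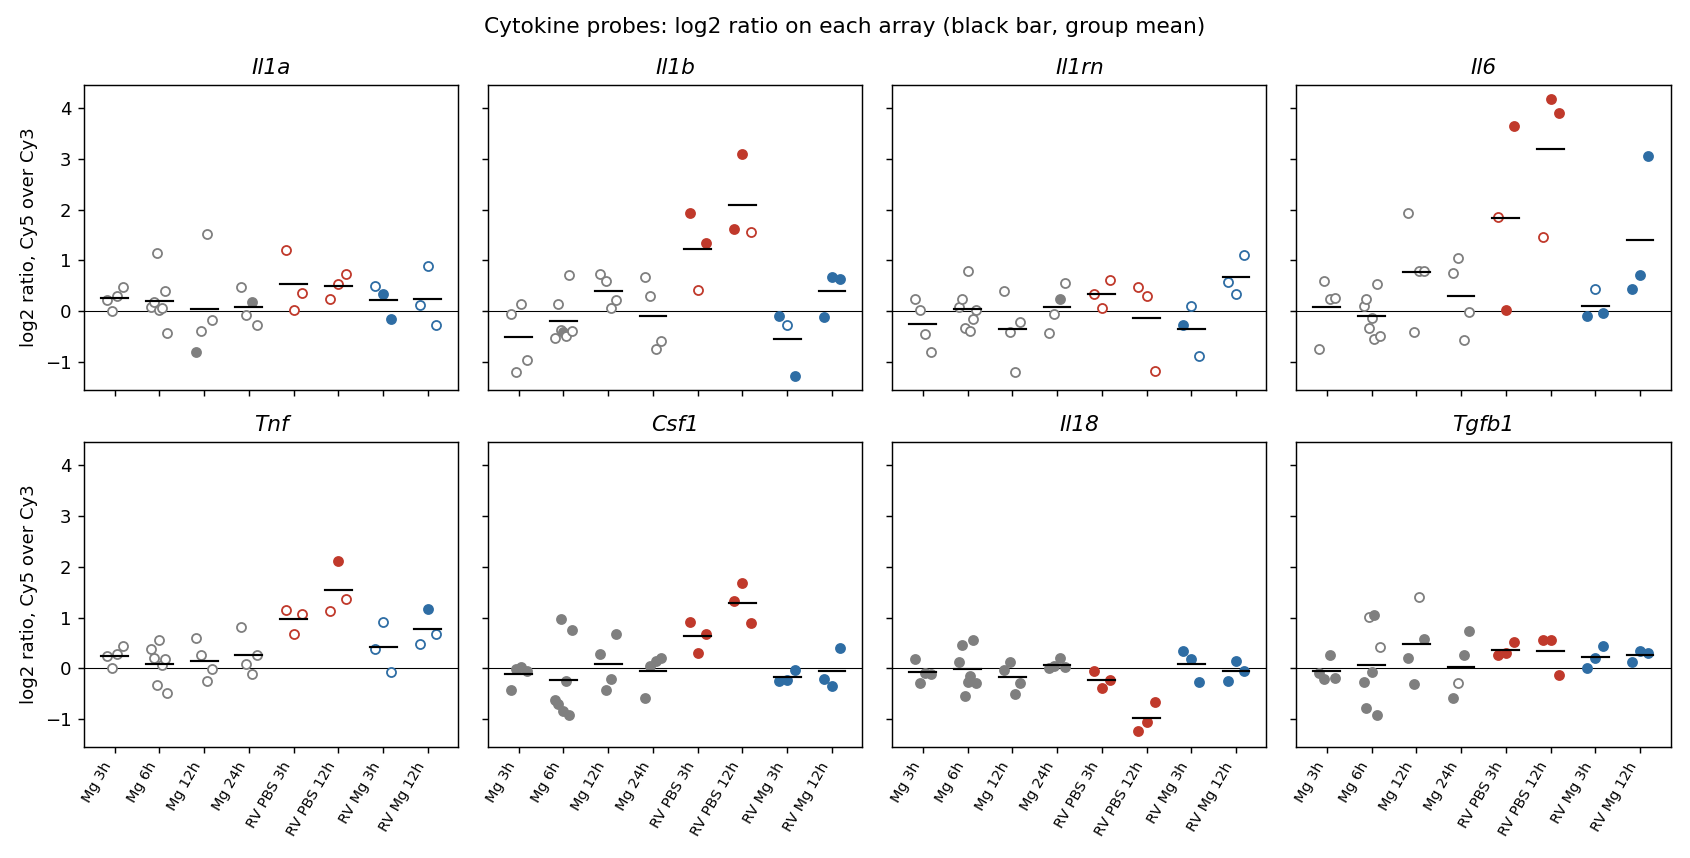
Each point is the log2 ratio of Cy5 over Cy3 on 1 array for the brightest probe of the named gene, by group, and the black bar is the group mean; filled points were well above background in at least 1 channel and open points in neither. Csf1 ratios lay above 0 on all 6 RV PBS arrays and Il18 ratios below 0, while most points of Il1a, Il1rn and Tnf are open.

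Csf1 was measured by 3 probes, and the others carried the same sign after HI. The second probe had log2 ratios of 0.75, 0.52 and 0.64 at 3 h and 2.04, 1.88 and 0.63 at 12 h. The third probe had log2 ratios of 0.53, 0.26 and 0.30 at 3 h and 0.05, 1.77 and 0.64 at 12 h. The 3 probes thus agreed in sign on all 6 arrays, and the third was flat on 1 array at 12 h. The brightest probe was printed in 10 spots, and on the RV PBS arrays all 10 were well above background in both channels, whereas the other 2 probes had 1 spot each. At 12 h the Cy3 signal of the second probe was not well above background on 2 arrays, and that of the third on 1.

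**Figure D2:**
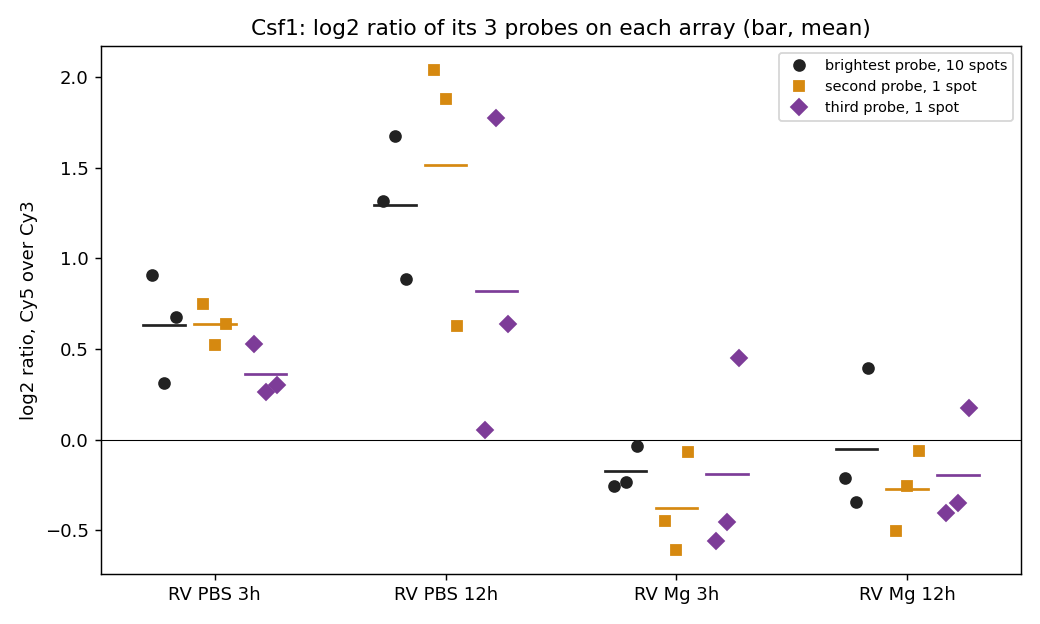
Points give the log2 ratio of Cy5 over Cy3 of each of the 3 Csf1 probes on each Rice-Vannucci array, and bars give the mean of 3 arrays. In the RV PBS groups all points lie above 0, from 0.05 to 2.04, and in the RV Mg groups they lie on both sides of 0.

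The agonist Il1b had positive ratios on all 6 RV PBS arrays, from dim signals. Its measured log2 ratios were 1.94, 0.42 and 1.33 at 3 h and 1.61, 3.10 and 1.56 at 12 h, and it was not called at either time. The Il1b probe was printed in 10 spots. In the HI pools of 3 h, 8 of 10, 0 of 9 and 5 of 9 usable spots were well above background, and in those of 12 h, 8, 10 and 3 of 10. In each of the 6 control pools it was 0 or 1 spots. The controls therefore give only a bound. It was set after the average intensity of both channels had been quantile-normalized between arrays. On these normalized intensities the bound was 1.13-fold higher Il1b after HI at 3 h and 1.71-fold higher at 12 h. A bound of this kind sets the HI mean against the lowest signal that was still well above background, or the control's own where that was higher. The HI mean includes pools that were not well above background, so the bound holds for these normalized intensities only.

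Il1a and its natural antagonist Il1rn were not well above background in either channel on any RV PBS array, so neither is compared there. The measured log2 ratios of Il1a lay between 0.03 and 1.2 at 3 h and between 0.24 and 0.74 at 12 h. Those of Il1rn lay between 0.06 and 0.62 at 3 h and between -1.18 and 0.47 at 12 h.

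Il6, an inducer of the acute phase response through Stat3, had ratios that spread widely. The only Il6 probe was printed in 1 spot. At 3 h its log2 ratios were 1.86, 0.02 and 3.65 (mean 1.84 ± 1.81, SD, n = 3), and it was not called at either time. The second array held 25.1 in Cy3 and 25.4 in Cy5, both well above background, while the third held 2.83 and 35.4. At 12 h its measured log2 ratios were 1.47, 4.18 and 3.91, with Cy5 intensities of 19.7, 82.8 and 43.2 against Cy3 intensities of 7.12, 4.56 and 2.87. The HI signal was above background on arrays 2 and 3 and the control on none. On the normalized intensities used for Il1b, the bound was 2.16-fold higher Il6 at 12 h. With normexp and loess, the mean log2 ratio at 12 h was 0.48 for Il6 and 0.28 for Il1b, so the size of both ratios depends on how the background is removed. Both lay below the 12 h bounds, which were 1.11 for Il6 and 0.77 for Il1b on the log2 scale.

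Tnf did not pass the detection filter in any group and has no test. On the RV PBS arrays its Cy5 intensity was 9.16, 7.64 and 6.79 at 3 h and 15.5, 22.9 and 9.38 at 12 h, against 3.24 to 7.14 in the control pools. Of these, the second 12 h pool was well above background. The measured log2 ratios were positive on all 6 arrays, from 0.68 to 2.12, but no bound above 1 could be set for Tnf.

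Il18 was the member with lower values after HI. Its only probe was printed in 1 spot. Its log2 ratios were -0.05, -0.38 and -0.24 at 3 h (mean -0.22 ± 0.16, SD, n = 3, adjusted p = 0.129) and -1.24, -1.06 and -0.66 at 12 h (mean -0.99 ± 0.30, SD, n = 3, adjusted p = 0.0750). At 12 h the control intensities were 1800, 1790 and 1610 and the HI intensities 764, 856 and 1020, which did not overlap. At 3 h they were 1000, 1220 and 1310 in controls and 963, 938 and 1110 after HI, which did overlap. At 12 h the adjusted p of Il18 ran from 0.00333 to 0.448 over the alternatives. Both Il18 and Il1b precursors are cleaved by caspase-1, whose transcript Casp1 had a log2 ratio of -0.43 at 3 h (adjusted p = 0.0378, below the fold limit) and of -0.19 at 12 h (adjusted p = 0.463).

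Tgfb1 had small positive ratios at 3 h of 0.27, 0.30 and 0.52 (mean 0.36 ± 0.14, SD, n = 3, adjusted p = 0.0448), below the fold limit. At 12 h they were 0.56, 0.56 and -0.12 (mean 0.33 ± 0.40, SD, n = 3, adjusted p = 0.280), and the third array had the opposite sign.

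**Figure D3:**
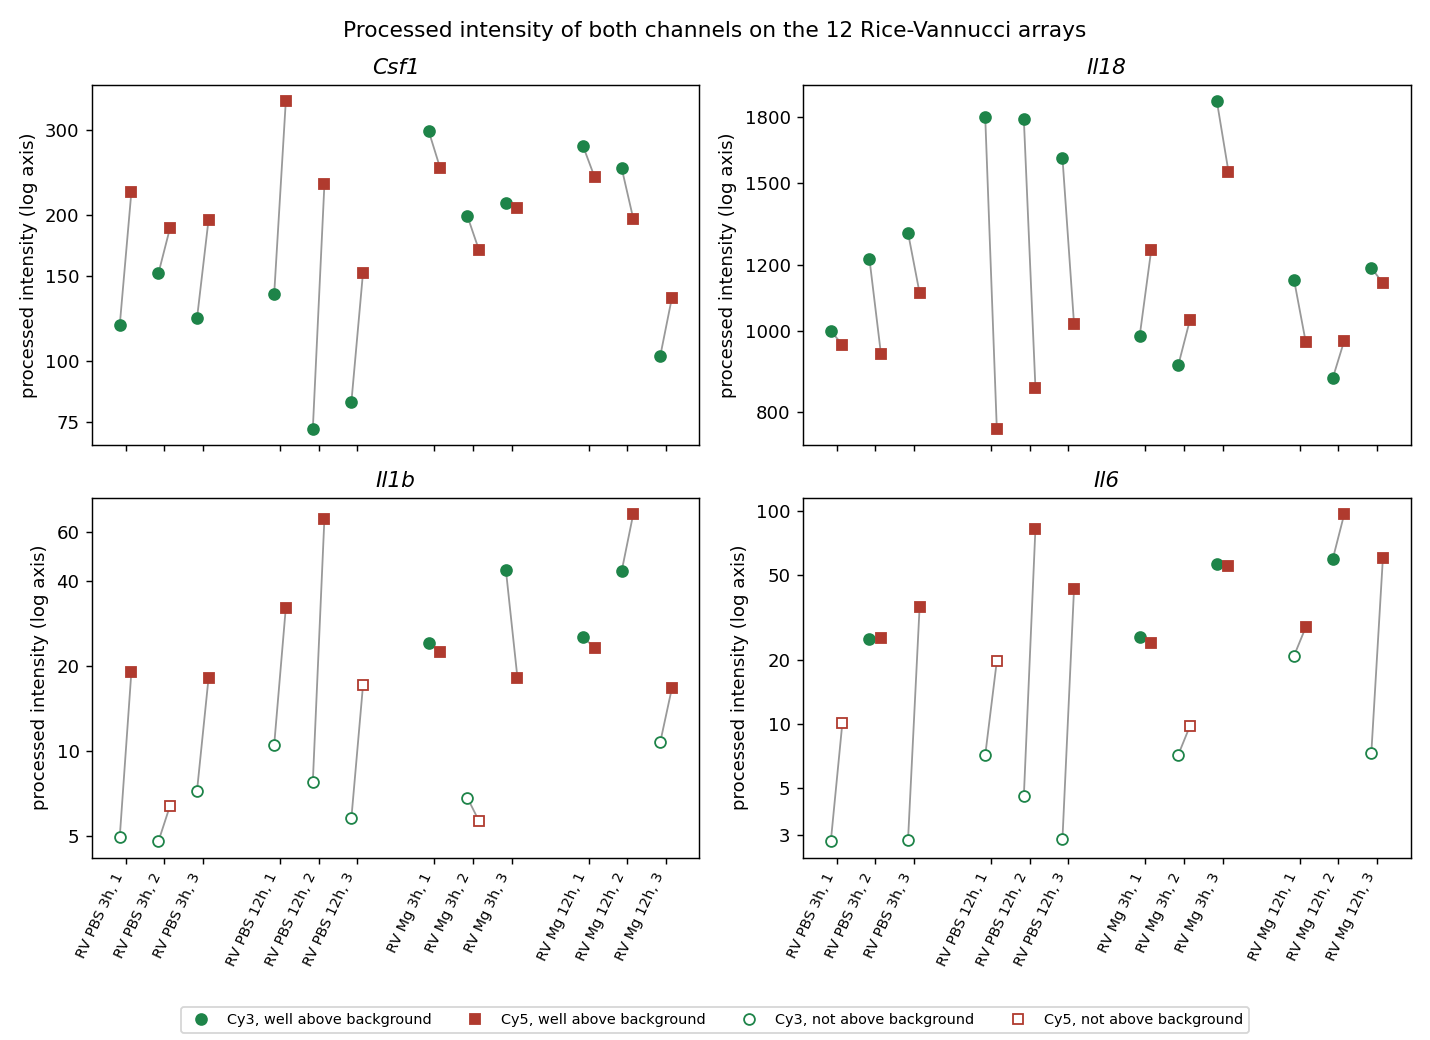
Processed intensity, on a log axis, of Csf1, Il18, Il1b and Il6 in the Cy3 pool (circles) and the Cy5 pool (squares) of each of the 12 Rice-Vannucci arrays, joined by a line per array; open symbols were not well above background. In RV PBS the Csf1 lines rise and the Il18 lines fall on every array, and the Il1b and Il6 control symbols are open on all arrays but 1.

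The change between 3 h and 12 h after HI was tested directly. The log2 ratio of Il18 was lower at 12 h by -0.76 (SE 0.18, unadjusted p = 0.00417, adjusted p = 0.140) and that of Csf1 higher by 0.66 (SE 0.24, unadjusted p = 0.0304, adjusted p = 0.253). The Il18 ratios of the 2 times did not overlap and those of Csf1 did. None of the 5 members tested was called, nor was any of 14827 genes, 0%, and at an unadjusted p under 0.05 these 2 members passed beside 6.16% of genes. One slide held both times, and within it the differences were -1.0 for Il18 and 0.64 for Csf1. Read by channel, as log2 intensity minus the array's 75th percentile, the control level of Csf1 was -2.23 ± 0.16 at 3 h and -2.82 ± 0.27 at 12 h, and its HI level was -1.58 ± 0.32 and -1.52 ± 0.42 (SD, n = 3 each). The HI levels of Csf1 at the 2 times thus lay within their SDs, while the control levels lay apart. The control level of Il18 was 0.94 ± 0.06 at 3 h and 1.39 ± 0.20 at 12 h, and its HI level was 0.73 ± 0.19 and 0.41 ± 0.41 (SD, n = 3 each). Levels of 1 channel were not tested between the times.

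The cytokine ratios after HI were also set against those after MgSO4 alone at the same time. At 3 h the Csf1 log2 ratio was 0.63 in RV PBS and -0.11 in Mg, a difference of 0.75 (SE 0.17, adjusted p = 0.122), and at 12 h the difference was 1.21 (SE 0.30, adjusted p = 0.258). The Il18 difference was -0.15 at 3 h (adjusted p = 0.640) and -0.81 at 12 h (adjusted p = 0.267). Of 5 members tested, 0 were called at 3 h, beside 0.67% of genes, and 0 at 12 h, beside 0.0475%. At an unadjusted p under 0.05, Csf1 passed at 3 h of the 3 members Csf1, Il18 and Tgfb1, where 3.62% of genes did, and Csf1 and Il18 passed at 12 h, where 5.56% did. Il1b and Il6 were above background on no Mg 3h or Mg 12h array and are not compared. These arrays were hybridised on different slides, so slide and experiment cannot be told apart. With normexp and loess, Csf1 (log2 difference 0.68) and Il18 (log2 difference -0.71) were called at 12 h.

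MgSO4 alone gave no called change in a member at any time. Csf1, Il18 and Tgfb1 were the 3 members tested in each Mg group, and 0 of 3 were called at 3, 6, 12 and 24 h, beside 0%, 0.0365%, 0% and 0.00714% of genes. At an unadjusted p under 0.05 none of the 3 passed either, beside 1%, 1.39%, 3.7% and 0.936% of genes. The mean log2 ratio of Csf1 was -0.11 ± 0.21 at 3 h (n = 4), -0.23 ± 0.78 at 6 h (n = 7), 0.08 ± 0.50 at 12 h (n = 4) and -0.05 ± 0.36 at 24 h (n = 4, all SD). The mean log2 ratio of Il18 lay between -0.17 and 0.07 and that of Tgfb1 between -0.06 and 0.47 over the 4 times.

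At 6 h the arrays did not move together. Csf1 ratios ran from a lowest of -0.93 over a median of -0.63 to a highest of 0.97, and they were above 0 on replicates 3 and 7 (0.97 and 0.75) and below 0 on the other 5. Replicates 3 and 7 correlated with each other over all probes (r = 0.53) and below 0 with replicates 2 (r = -0.36 and -0.33) and 6 (r = -0.30 and -0.28). Replicates 3 and 7 shared 1 slide and replicates 2 and 6 another, and the correlation within slides was 0.62 in this group. The labels and methods put MgSO4 in Cy5 on all 7 arrays and the direction is kept so, but an exchange of dyes on 1 of these slides was not tested.

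On the RV Mg arrays Csf1 and Il18 had mean ratios near 0, while Il1b and Il6 varied between arrays. At 3 h the log2 ratio of Cy5 over Cy3 for Csf1 was -0.26, -0.23 and -0.04 (mean -0.17 ± 0.12, SD, n = 3, adjusted p = 0.308) and at 12 h it was -0.21, -0.35 and 0.40 (mean -0.05 ± 0.40, SD, n = 3, adjusted p = 0.864). Il18 had means of 0.08 ± 0.32 at 3 h and -0.05 ± 0.20 at 12 h (SD, n = 3). Il1b had log2 ratios of -0.10, -0.27 and -1.27 at 3 h and -0.12, 0.67 and 0.63 at 12 h, so its sign differed between arrays. Il6 had log2 ratios of -0.09, 0.45 and -0.04 at 3 h and 0.44, 0.71 and 3.05 at 12 h. Of 6 members tested at 3 h 0 were called, beside 5.47% of genes, and of 5 at 12 h 0 were called, beside 0%. At an unadjusted p under 0.05, 0 members passed at 3 h, beside 6.94% of genes. At 12 h none of Csf1, Il18, Tgfb1 and Il1b passed with that fold, beside 6.55% of genes. Il6 at 12 h is left out of this count, because it could be tested only through Cy5. Its Cy3 signal was above background on 1 of these 3 arrays. The mean log2 ratio of Il6 there was 1.40 ± 1.44 (SD, n = 3), with 1 array at 3.05.

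Each channel of the RV Mg arrays was then compared with the same channel of the RV PBS arrays, on the same scale. The main test did not pair the arrays. In Cy3, which is the uninjured control pool on the RV PBS arrays, the Csf1 level on the RV Mg arrays was -1.59 ± 0.37 against -2.23 ± 0.16 at 3 h and -1.68 ± 0.67 against -2.82 ± 0.27 at 12 h (SD, n = 3 each). The differences were 0.64 (95% interval 0.16 to 1.11, adjusted p = 0.259) and 1.14 (95% interval 0.33 to 1.96, adjusted p = 0.355), and the values of the groups did not overlap at either time. Within the slides that held both groups the Csf1 difference was 0.69 and 0.54 at 3 h and 1.17 and 1.13 at 12 h. The Cy3 level of Il18 was 0.60 lower at 12 h (95% interval -1.04 to -0.15, adjusted p = 0.355). In Cy3, Il1b was well above background on 2 of 3 RV Mg arrays and on 0 of 3 RV PBS arrays at each time, and no difference is given for it. Il1a was well above background on replicates 2 and 3 of RV Mg 3h in both channels, with Cy3 intensities of 3.41, 17.8 and 22.9 against 2.88, 2.98 and 2.39 on the RV PBS 3h arrays, none of which was above background. For comparison, the Mg 3h arrays, in which MgSO4-treated uninjured pups were in Cy5, gave -0.11 for Csf1, and the Mg 12h arrays gave 0.08.

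In Cy5, which the labels give as the injured pool in both experiments, no member reached an unadjusted p under 0.05 with a 1.5-fold change. Csf1 was -1.76 ± 0.29 on the RV Mg arrays and -1.58 ± 0.32 on the RV PBS arrays at 3 h, a difference of -0.17 (95% interval -0.67 to 0.33, adjusted p = 0.634). At 12 h the difference was -0.21 (95% interval -0.82 to 0.40, adjusted p = 0.737). The Il18 difference was 0.13 at the earlier time and 0.33 at the later one (adjusted p = 0.603 for both). Tgfb1 was lower in Cy5 of RV Mg 3h without overlap of the groups, by a log2 difference of -0.33 (95% interval -0.60 to -0.06, adjusted p = 0.114). With the replicate number as a block, the 3 h difference of Csf1 was -0.17 (SE 0.05, adjusted p = 0.0569), that of Tgfb1 was -0.33 (SE 0.06, adjusted p = 0.0260, below the fold limit), and the 12 h difference of Csf1 was -0.21 (SE 0.11, adjusted p = 0.314). In Cy3, 0 members were called of 6 tested at 3 h, beside 0.28% of genes, and of 4 tested at 12 h, beside 0%. In Cy5, 0 members were called of 6 tested at 3 h, beside 4.09% of genes, and of 5 tested at 12 h, beside 0%. At an unadjusted p under 0.05, Csf1 passed in Cy3 at 3 h of the 3 members Csf1, Il18 and Tgfb1, where 4.18% of genes did, and Csf1 and Il18 passed at 12 h, where 5.32% did. In Cy5, 0 members passed at either time with that fold, beside 5.58% and 5.09% of genes.

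Same-numbered RV Mg and RV PBS arrays deviated together in Cy5 at both times and in Cy3 at 3 h. With the replicate number as a block, the count of genes called in Cy3 at 3 h went from 41 to 125 and no member was called. Csf1 levels were also ordered over the 24 channels of the 12 arrays of the HI experiments. The Cy3 channels of RV PBS 12h were lowest (-2.82 ± 0.27) and those of RV PBS 3h next (-2.23 ± 0.16). The other 6 sets of channels had means from -1.76 to -1.52, which did not differ beyond their SDs of 0.27 to 0.67.

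The 3 genes whose ratio was most like that of Csf1 over the 31 arrays were Adar (root mean square difference 0.30 on the log2 scale), Ctnna1 (0.30) and Axl (0.32), among 14080 genes with a median difference of 0.71. Adar is an RNA-editing enzyme, Ctnna1 an adherens junction protein and Axl a receptor tyrosine kinase. Their mean log2 ratios in RV PBS 12h were 0.75, 0.84 and 0.79.

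Around the 8 cytokines, lists of their receptors, signalling genes and targets were read at 3 h after HI, where 3.81% of all genes were called. These lists were chosen with earlier results of these data known. Of 14 cytokine-responsive targets 11 were tested and 6 were higher, 0 lower, with a median log2 ratio of 0.92 over the 11 against -0.03 over all genes tested. Those higher included the chemokines Cxcl1 (log2 ratio 2.64) and Ccl2 (2.14) and the transcription factors Cebpb (1.32) and Cebpd (1.26). Of 14 receptors and decoys 10 were tested and 3 were higher, namely the interleukin-1 receptor Il1r1 (0.90), the interleukin-18 binding protein Il18bp (0.73) and the interleukin-6 receptor Il6ra (0.68). Of 27 signalling and feedback genes 23 were tested and 3 were higher, namely Socs3, a feedback inhibitor of cytokine receptors (1.71), the NF-kB cofactor Bcl3 (1.3) and Smad7, an inhibitor of transforming growth factor signalling (0.70). Of 18 related ligands 8 were tested and of 10 processing and release genes 10 were tested, and 0 of each were called. The median log2 ratios were 0.12 for the receptors, 0.27 for the signalling genes, -0.01 for the related ligands and -0.21 for the processing genes. The receptor Csf1r, which binds Csf1, had a log2 ratio of -0.17 (adjusted p = 0.136).

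At 12 h after HI none of the genes of these lists was called. At an unadjusted p under 0.05 and the same fold, 9 of 12 targets tested passed, all higher, as did 2 of 10 receptors, 5 of 25 signalling genes, 1 of 9 related ligands and 2 of 9 processing genes, beside 10.4% of all genes. The targets had a median log2 ratio of 1.16, and the largest were those of the acute phase gene Saa3 (3.73, adjusted p = 0.0735) and of Ccl2 (3.18, adjusted p = 0.0735). Socs3 was at 0.61 and Il1r1 at 1.38, and neither time was tested against the other for these genes. On the RV Mg 3h arrays 1 signalling gene, Nfkb1, was higher in Cy5 (1.05) and 1 receptor, Tgfbr3, was lower in Cy5 (-0.60), beside 5.47% of all genes called, and 0 targets were called at either time. Set against RV PBS by channel, 2 of 12 targets tested were higher in Cy3 of RV Mg 3h, with a median log2 difference of 1.17 over the 12 against -0.05 over all genes, of which 0.28% were called. At 12 h the Cy3 median was 0.76 with 0 called. In Cy5 at 3 h 0 targets were called, beside 4.09% of genes, and their median was -0.11.

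**Figure D4:**
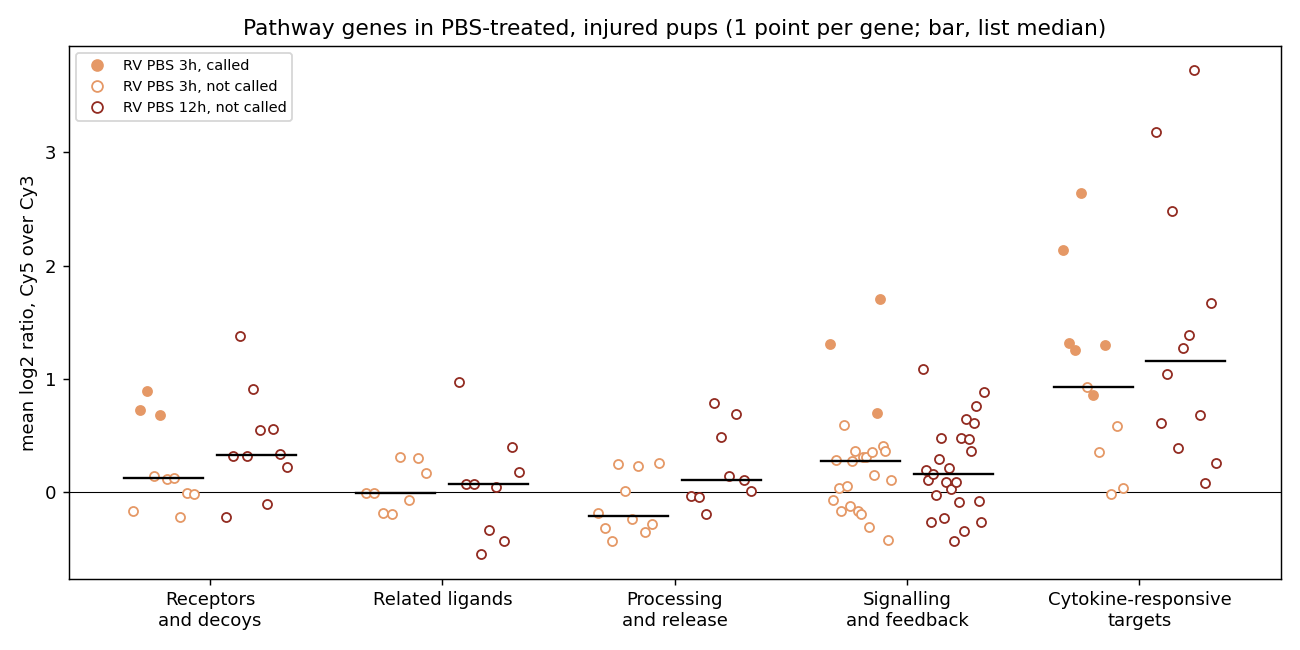
Each point is the mean log2 ratio, HI over control, of 1 gene of the named list in RV PBS 3h (light) or RV PBS 12h (dark), bars are list medians, and filled points were called. The cytokine-responsive targets have medians of 0.92 and 1.16, above those of the other lists, which lie between -0.21 and 0.33.

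Markers of cell types that make or answer these cytokines moved unevenly in the same arrays. Of 8 neutrophil markers 7 were on the array and 6 were above background at 3 h, where S100a8 (log2 ratio 1.09) and S100a9 (0.82) were called higher. Of the 6 tested, 3 had positive and 3 negative ratios with a median of 0.01, among them Mpo at -0.64 (adjusted p = 0.112), Cd177 at -0.13 and Camp at -0.10. The summed level of the list, in units of the array's 75th percentile intensity, was 1.49 to 1.75 in the control pools and 2.27 to 2.56 in the HI pools, and Ngp was not above background. At 12 h 4 of the 7 were above background and the sums overlapped, at 1.42 to 2.56 and 1.41 to 3.94. The 3 monocyte markers tested had negative ratios at both times, with medians of -0.29 and -0.32 and 0 called. Of 3 border macrophage markers tested, 3 had negative ratios at 3 h (median -0.23) and 1 at 12 h (median 0.06), with 0 called. The 11 microglial markers on the array were all above background, with sums of 62.2 to 68.4 and 69.6 to 76.6 at 3 h and of 53.0 to 67.5 and 53.2 to 84.5 at 12 h, and 0 of 11 were called. At 3 h 9 of the 11 had negative ratios and 2 positive ones, with a median of -0.07, P2ry12 at -0.37 and Tmem119 at -0.37, so the sum and most of its genes had opposite signs. At 12 h 6 had negative ratios and 5 positive ones, with a median of -0.05 and P2ry12 at -1.08 (adjusted p = 0.0828). The 5 astrocyte markers summed to 19.3 to 24.0 in control pools and 26.3 to 35.7 in HI pools at 12 h, with Gfap at a log2 ratio of 1.63 (adjusted p = 0.0735), and to 19.6 to 24.1 and 22.8 to 27.3 at 3 h. The 3 choroid plexus markers summed to 50.9 to 62.7 and 81.1 to 139.9 at 12 h. The 4 oligodendrocyte lineage markers summed to 4.99 to 5.88 and 6.79 to 7.29 at 12 h, with 4 of 4 ratios positive, a median of 0.44 and 0 called. The 5 neuronal markers, which mark the labelled tissue, were all above background, with sums of 322 to 365 and 334 to 368 at 3 h. On the RV Mg 3h arrays the neutrophil sum was 2.02 to 4.11 in Cy3 and 1.66 to 1.91 in Cy5, and the microglial sum was 70.0 to 81.7 in Cy3 and 64.7 to 75.2 in Cy5, of which the microglial sums overlapped between channels. There 3 of 6 neutrophil markers tested were called lower in Cy5, namely S100a9 (-1.005), Camp (-0.60) and Mpo (-0.59). So was 1 of 3 monocyte markers tested, Chil3 (-0.64), beside 5.47% of all genes called in either direction. The part of these cell types in the cytokine ratios was not tested.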

How the data were processed

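The authors hybridised Agilent mouse arrays and deposited the scanner output of Agilent Feature Extraction 10.5.1.1, whose processed intensity is background-subtracted and dye-normalized, with a log10 ratio of Cy5 over Cy3 per spot. The deposited series value table equals that log10 ratio on the 30 arrays that hold it. Control spots and outlier spots were left out, spots of 1 probe were averaged, and probes were named through RefSeq accessions (27427 of 39429 probes had 1 symbol, and 26345 probes were used, with 930 symbols that contain Rik left out). Ratios were log2 of Cy5 over Cy3 processed intensity, and single-channel levels were log2 intensity minus the array's 75th percentile. The bounds alone were taken after quantile normalization, between arrays, of the average log2 intensity of both channels. From 45.2% to 70.2% of probes were well above background per array and channel, and the number of arrays limits the precision.

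Group means were tested against 0, and groups against each other, with lmFit and eBayes in limma 3.58.1 (R 4.3.3) over all probes passing the detection filter. The code was tested on simulated data. The p-values measure the spread between arrays, and the main tests took each array as a separate sample. For MgSO4 alone the paper describes 3 samples at each time, which is fewer than the arrays of any Mg group. Some Mg arrays may therefore share a pool, and which ones is not stated, so n counts arrays. The numbers of RV arrays come from the labels, and deviations from group means of same-numbered arrays correlated at 0.18 to 0.38 (Cy3, 3 h), 0.23 to 0.52 (Cy5, 3 h) and 0.27 to 0.44 (Cy5, 12 h). The main tests did not pair these arrays, and the pairing entered only through the replicate block, as an alternative. Alternatives were normexp with loess (offset 50), median centring or quantile normalization, no filter, the series value table, slide as a random block, a replicate block, the methods' t-test, the probe with the largest change for each gene, and leaving out each array. The members and gene lists were chosen with earlier results of these data known. Named list genes were those called in RV PBS groups, up to 5 per list by largest ratio, of which 1 is not reported here, and others named were chosen after their values were seen.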

Additional observations from a re-analysis of the deposited data

How the results depend on the processing

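Of 777 values of single members recomputed under other settings, over 69 member results, 716 kept their direction and their side of the threshold, 15 passed it newly, 6 lost it and 40, in 17 results, turned sign; the cause of none of these was tested. Signals near background and the number of arrays limit the precision.

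With normexp and loess, genes called became 39, 0, 32 and 6 for MgSO4 alone at 3, 6, 12 and 24 h, 243 and 326 for RV PBS at 3 h and 12 h (members 0 and 2), 356 and 251 for RV Mg, 45 between RV PBS times, 120 for RV PBS against Mg at 12 h (members 2) and 234 in Cy5 at 3 h. Without the filter on dim probes they became 2 (Mg 6h), 0 (Mg 24h), 29 with 0 members (RV PBS 3h), 0 (RV PBS 12h), 387 (RV Mg 3h), 40 (RV PBS against Mg, 3 h) and 24 (Cy3, 3 h). The methods' t-test at its unadjusted threshold gave 97, 136, 171 and 64 genes for Mg, 0 members for RV PBS 3h, 739 genes and 2 members for RV PBS 12h and 367 genes for RV Mg 12h. After Benjamini-Hochberg it gave 0 genes for Mg 24h, RV PBS 3h (0 members), RV PBS 12h and RV Mg 3h. Median centring gave 0 genes for RV PBS 12h, quantile normalization 2 for Cy3 at 12 h, and the probe with the largest change 1398 for RV Mg 3h and 1115 for Cy5 at 3 h. Slide as a random block gave 0 genes for Mg 6h, 232 for Cy3 at 3 h and 17 for Cy5 at 12 h; it could not be fitted for the RV groups taken singly or for RV PBS 12h against Mg 12h, and each Mg 12h and Mg 24h array lay on its own slide.

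With the replicate number as a block, genes called became 125 in Cy3 at 3 h, where the numbers paired the arrays, and no member's call changed in any comparison. Where the numbers did not pair them, the block gave 15 genes for RV PBS against Mg at 3 h and 0 at 12 h.

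Leaving out single arrays gave 0 to 0 genes for Mg 3h and Mg 12h, 0 to 11 for Mg 6h, 0 to 2 for Mg 24h, 240 to 553 with 0 to 2 members for RV PBS 3h, 17 to 2594 with 0 to 3 members for RV PBS 12h, 581 to 1333 for RV Mg 3h, 0 to 429 for RV Mg 12h, 0 to 1 between RV PBS times, 27 to 103 and 0 to 13 for RV PBS against Mg at 3 h and 12 h, 20 to 90 with 0 to 1 members for Cy3 at 3 h, 0 to 5 for Cy3 at 12 h, 299 to 525 for Cy5 at 3 h and 0 to 11 for Cy5 at 12 h. The member counts without single arrays include Il1b, Il6 and Il1a, whose other group or channel was not above background.

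Signs turned in values that were not called. With normexp and loess, the log2 difference was -0.047 for Tgfb1 and 0.068 for Il18 in Mg 6h, -0.025 for Tgfb1 in Mg 24h, 0.028 for Il18 in RV Mg 12h, 0.083 for Tgfb1 in RV PBS against Mg at 12 h, -0.081 for Il1b in Cy3 at 12 h and -0.077 for Il6 in Cy5 at 12 h. Median centring gave 0.038 for Tgfb1 between RV PBS times, and quantile normalization 0.0033 for Il1b in Cy5 at 12 h. With single arrays left out, the log2 difference ran from -0.11 to 0.22 for Tgfb1 and -0.11 to 0.071 for Il18 in Mg 6h, from -0.12 to 0.25 for Csf1 in Mg 12h, and from -0.13 to 0.13 for Csf1 and -0.20 to 0.24 for Tgfb1 in Mg 24h. It ran from -0.050 to 0.26 for Il18 in RV Mg 3h, where Il6 was tested only without replicate 2 (-0.069), and from -0.28 to 0.092 for Csf1 and -0.15 to 0.044 for Il18 in RV Mg 12h. For Tgfb1 it ran from -0.15 to 0.20 between RV PBS times and from -0.40 to 0.18 in RV PBS against Mg at 12 h. In Cy5 it ran from -0.34 to 0.011 for Csf1, -0.75 to 0.39 for Il1b and -0.58 to 0.56 for Il6 at 3 h, and from -0.15 to 1.09 for Il6 and -0.69 to 0.53 for Il1b at 12 h.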
